A study of Homo sapiens with 4 samples.

Results

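The HOX cluster genes were taken from a table of PML binding peaks as the rows of protein-coding type whose nearest gene is a numbered member of HOXA, HOXB, HOXC or HOXD. This gave 26 peaks at 21 genes, out of 68937 peaks in all and 49617 peaks assigned to 13948 protein-coding genes. RefSeq lists 39 HOX genes, and the other 18 are the nearest gene of no peak. In the study, MDA-MB-231, a widely used cell line from a triple-negative breast cancer, was cross-linked and PML was immunoprecipitated in 2 libraries, with 2 input libraries as reference. Both groups are the same line, and the labels name no treatment or genetic change. The duplicates were merged by the authors, so that no value below has a replicate error, no cluster could be tested against another, and read depth is unknown. The table holds no expression, so neither the identity of the cells nor the activity of HOX genes in them was checked.

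PML is the protein that builds PML nuclear bodies, and a ChIP peak marks DNA that was recovered with it, directly or through other chromatin proteins. HOX genes encode homeodomain transcription factors that give cells their position along the body axis. They sit in clusters in which gene order follows the order of expression, from anterior genes at the 3′ end to posterior genes at the 5′ end. Genes of the same number in different clusters are paralogs, descended from a common ancestor. In adult cells Polycomb proteins keep many HOX genes silent and trithorax proteins of the MLL family keep others active. HOX genes are short, and most have a pair of exons with the homeobox in the last one.

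Promoters where a PML peak reached the bases before a RefSeq start are printed below, and a peak need not cover all of those bases. RefSeq promoter windows of GRCh38.p14 were matched for 20 of the 39 genes. Most windows are of HOXA and HOXD, and several are starts of HOXA3. HOXB has a window at HOXB1 only, and HOXC only at the start that HOXC4 and HOXC5 share. HOXA5, HOXB5, HOXB9, HOXB13, HOXC8 and HOXC11 have promoter peaks but no window. The 250 bases before the start were overlapped by a peak in 6 of 26 distinct windows. HOXA4, HOXD10, HOXD11, HOXD13 and the more upstream start of HOXA10 were among the 6. Their sequences are printed 5′ to 3′ in gene orientation, with matches to the searched motifs in capitals. The other start of HOXA10 is shown because the highest-scoring HOX peak lies just downstream of it. HOXD12 is shown as a neighbour with no peak. HOXD13 and the downstream start of HOXA10 were picked by a rule that takes the highest-scoring promoter peak of each cluster. The others were picked after the peaks were seen.
HOXA4, chr7:27130758-27131007, minus strand: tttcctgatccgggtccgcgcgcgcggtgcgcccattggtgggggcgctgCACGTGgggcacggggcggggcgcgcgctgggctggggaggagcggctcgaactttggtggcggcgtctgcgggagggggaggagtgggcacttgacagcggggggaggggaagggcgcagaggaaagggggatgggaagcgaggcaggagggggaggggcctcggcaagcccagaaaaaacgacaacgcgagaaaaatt
HOXA10 upstream start, chr7:27179862-27180111, minus strand: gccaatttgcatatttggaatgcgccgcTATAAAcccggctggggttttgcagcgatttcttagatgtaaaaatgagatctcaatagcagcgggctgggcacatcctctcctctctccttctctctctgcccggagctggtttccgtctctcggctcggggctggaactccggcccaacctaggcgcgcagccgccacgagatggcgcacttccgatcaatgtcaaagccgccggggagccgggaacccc
HOXA10 downstream start, chr7:27174321-27174570, minus strand: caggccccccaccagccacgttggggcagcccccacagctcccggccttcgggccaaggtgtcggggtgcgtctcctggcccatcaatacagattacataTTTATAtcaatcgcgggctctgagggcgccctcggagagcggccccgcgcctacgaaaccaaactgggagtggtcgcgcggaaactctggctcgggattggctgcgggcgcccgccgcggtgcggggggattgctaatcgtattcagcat
HOXD10, chr2:176116528-176116777, plus strand: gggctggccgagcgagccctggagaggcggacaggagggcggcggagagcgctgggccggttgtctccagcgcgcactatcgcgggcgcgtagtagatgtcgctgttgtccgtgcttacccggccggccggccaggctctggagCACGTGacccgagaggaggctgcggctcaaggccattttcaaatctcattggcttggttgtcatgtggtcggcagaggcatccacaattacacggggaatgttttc
HOXD11, chr2:176107030-176107279, plus strand: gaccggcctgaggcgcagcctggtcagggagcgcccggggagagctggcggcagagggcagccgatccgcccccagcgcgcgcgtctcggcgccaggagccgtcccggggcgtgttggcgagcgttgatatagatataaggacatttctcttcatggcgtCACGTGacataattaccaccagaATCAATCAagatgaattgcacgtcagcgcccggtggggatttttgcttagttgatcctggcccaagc
HOXD12, chr2:176099545-176099794, plus strand: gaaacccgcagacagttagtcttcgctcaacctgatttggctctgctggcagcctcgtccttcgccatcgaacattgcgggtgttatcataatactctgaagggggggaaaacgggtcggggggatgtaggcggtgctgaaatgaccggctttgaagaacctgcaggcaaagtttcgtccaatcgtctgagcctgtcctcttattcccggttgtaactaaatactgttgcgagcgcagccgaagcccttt
HOXD13, chr2:176092471-176092720, plus strand: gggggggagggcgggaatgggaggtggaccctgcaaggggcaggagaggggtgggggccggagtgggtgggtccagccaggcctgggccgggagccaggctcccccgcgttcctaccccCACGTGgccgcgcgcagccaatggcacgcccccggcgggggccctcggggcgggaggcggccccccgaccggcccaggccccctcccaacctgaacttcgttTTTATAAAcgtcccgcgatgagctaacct

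The windows were searched on both strands for 4 motifs, with overlapping matches counted: the composite RONIN and ZNF143 site, the PBX-HOX site TGATNNAT, the TATA motif TATAAA and the E-box CACGTG. The E-box is a palindrome bound by basic helix-loop-helix proteins such as MYC and USF. It occurred in 8 of 26 HOX windows (30.8%), against 7.35% of 22049 windows of protein-coding genes of the same length. The HOX shares here are mainly those of HOXA and HOXD. Among protein-coding windows with at least as many CpG dinucleotides as the HOX median the E-box occurred in 9.58%. Of the 6 HOX windows that a peak overlapped at least in part, 4 held CACGTG: HOXA4 (200 bases before the start), HOXD13 (131), HOXD10 (106) and HOXD11 (90). Of the 20 without a peak, 4 held it. Over all protein-coding windows it was found in 9.24% of 10828 under a peak and 5.53% of 11221 without one. The CACGTG of HOXD10 lies outside its peak, which ends at 176116645. The other matches were 71 bases before HOXA9, 53 before HOXD1, 47 before HOXD3 and 51 before a start of HOXA3. Paralogs share ancestry, so these windows are not independent of one another. The RONIN and ZNF143 site matched none of the 26 windows, and 2.26% of all windows. TATAAA matched 5 HOX windows (19.2%, against 9.04%), HOXA10 and HOXD13 among them. At the upstream start of HOXA10 the TATAAA lies outside the peak, which ends at 27180025. TGATNNAT matched 3 (11.5%, against 4.56%), at HOXA2, HOXB1 and HOXD11. The median number of CpG dinucleotides was 23 in the 6 HOX windows under a peak and 15 in the 20 others. Over all protein-coding windows it was 24 under a peak and 6 elsewhere.

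HOXA, the cluster of 11 genes on chromosome 7 (minus strand), had the most PML peaks and the highest-scoring one. It held 12 of the 26 HOX peaks, at 9 of its genes, with scores from 17 to 106 and a median of 36. The score is a whole number that the authors give to each peak, and its scale is not stated, so it ranks peaks within the table only. Its highest peak was at HOXA10, a posterior gene known for its part in uterine development and blood cell differentiation. That peak ran from 27173091 to 27174030 (940 bp) over exon 1, 760 bp downstream of the transcription start site (TSS), with a score of 106. It ranked 3951 in the table. Further peaks of HOXA10 lay at its upstream start (score 36, 22 bp before the TSS) and 1243 bp upstream of a TSS in an intron (score 17). HOXA10 was thus the most peak-rich HOX gene, with 3 peaks.

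HOXA5, a regulator of lung development, had the next highest HOXA peak. It covered exon 1 from 27143060 to 27143888 (829 bp) with a score of 90, centred 207 bp after the TSS. HOXA4 had the widest HOX peak of all, 1324 bp from 27129962 to 27131285 with a score of 42, which spans the start and part of exon 1. HOXA2, which patterns the second pharyngeal arch, had a narrow peak of 279 bp in exon 1 with a score of 36. HOXA11 (26) and HOXA13 (21), which shape the forearm and the hand, had low-scoring peaks 492 and 481 bp after their TSS. The annotation column places those at the promoters of the antisense RNAs HOXA11-AS and HOTTIP, which start next to these genes. The remaining HOXA peaks lay between genes, in introns or in a 3′ UTR. They were assigned to HOXA3 (46, 6000 bp from its TSS), HOXA6 (48, 3007 bp upstream), HOXA7 (31, 4391 bp upstream) and HOXA2 (17, in the 3′ UTR of HOXA3). The peak given to HOXA6 overlapped the promoter window of another HOXA3 start. The HOXA3 peak, which ends at 27113780, lies just downstream of a further RefSeq start of HOXA3, whose window begins at 27113843. Both peaks are distant only by the deposited distance, so neither is counted as a promoter peak below. HOXA9 was the nearest gene of no peak.

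HOXD, with 9 genes on chromosome 2 (plus strand), had 7 peaks at 6 genes, all of them of low to middle score. Scores ran from 17 to 48, with a median of 31. HOXD13, the most posterior gene and needed for digit formation, had the highest. Its peak ran from 176092498 to 176093565 (1068 bp) with a score of 48, from the printed promoter into exon 1. HOXD10, which acts in hindlimb motor neurons, had a peak with a score of 42 centred 384 bp before its TSS. Besides HOXA10 it was the only HOX gene with a promoter peak centred upstream of the TSS. HOXD11 had one of the widest HOX peaks, 1233 bp with a score of 31, from 176106838 to 176108070. HOXD8 had a peak of 733 bp (score 36, 759 bp downstream), and HOXD4 one of 432 bp (score 17, 288 bp downstream). HOXD3 had 2 peaks in its first intron, with scores of 31 and 21 at 463 and 2747 bp. HOXD1, HOXD9 and HOXD12 had none.

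HOXB, the longest cluster with 10 genes over 200.2 kb of chromosome 17 (minus strand), had 4 peaks at 3 genes. HOXB9, which takes part in thoracic skeleton and mammary gland development, had the highest. Its peak covered exon 1 from 48625891 to 48626326 (436 bp) with a score of 68, 250 bp downstream of the TSS. HOXB5 had a peak of 322 bp in exon 1 with a score of 42, from 48593134 to 48593455. HOXB13, the prostate gene that lies far from the rest of the cluster, had a peak in exon 1 with a score of 26 and another 5985 bp upstream with a score of 21. HOXB1, HOXB2, HOXB3, HOXB4, HOXB6, HOXB7 and HOXB8 were the nearest gene of no peak.

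HOXC, with 9 genes on chromosome 12 (plus strand), had 3 peaks, all with scores below the median of the whole table, which was 34. HOXC11 had a peak of 454 bp in exon 1 with a score of 31, from 53973532 to 53973985. HOXC8, which patterns the thoracic skeleton, had one in its 5′ UTR with a score of 21, 289 bp from the TSS. HOXC12 was the nearest gene of a peak in a CpG island 6199 bp downstream of its TSS, with a score of 26. HOXC4, HOXC5, HOXC6, HOXC9, HOXC10 and HOXC13 were the nearest gene of none.

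**Figure D1:**
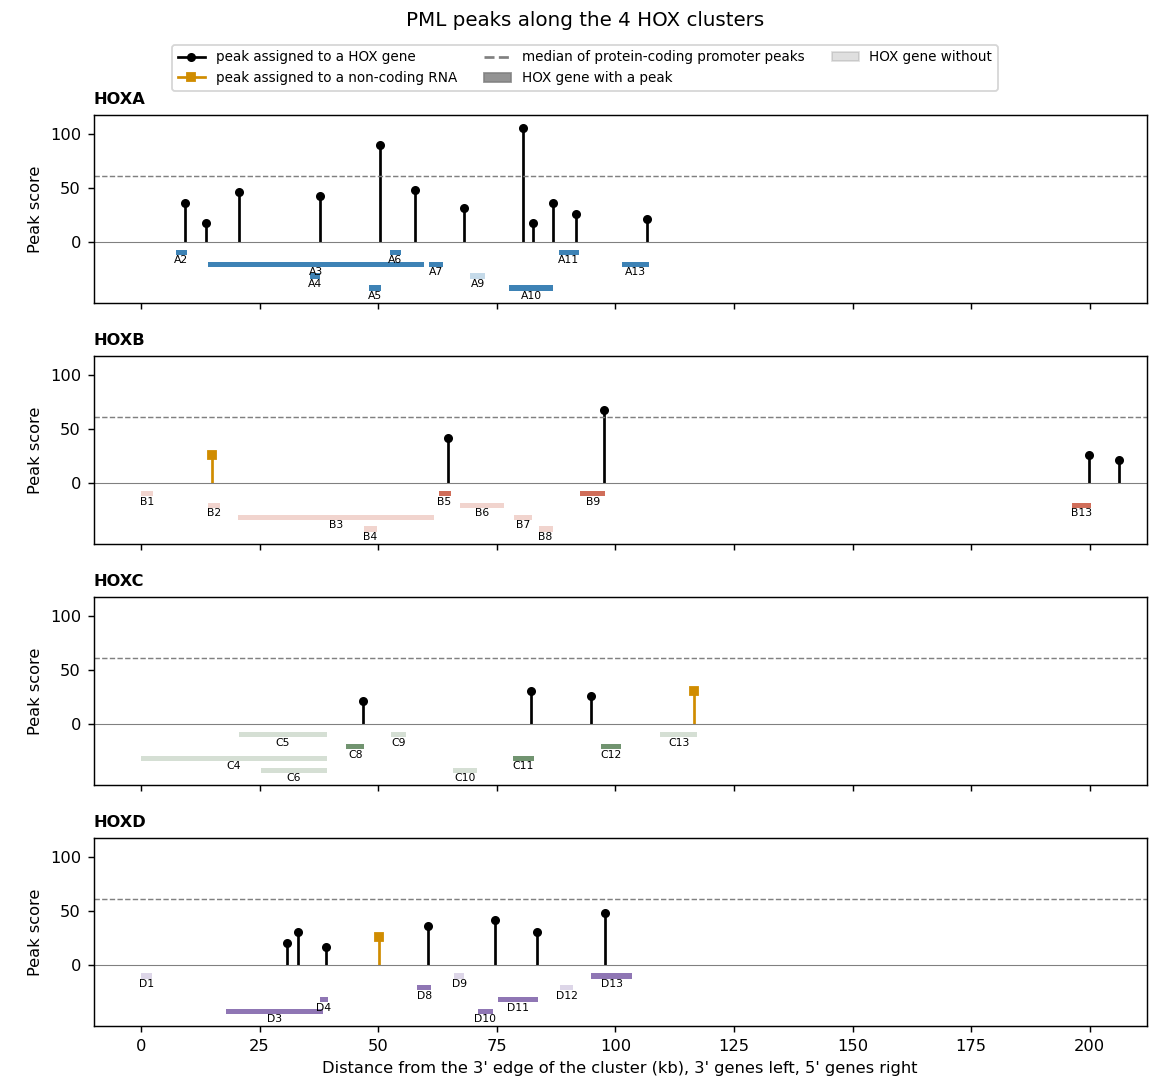
PML peaks in each cluster by distance in kb from its 3′ edge, with the height giving the peak score; boxes are RefSeq HOX genes (1 HOXA gene and 1 peak are not drawn), and the dashed line is the median score of protein-coding promoter peaks, 61. Only peaks at HOXA10 (106), HOXA5 (90) and HOXB9 (68) rise above it.

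The table assigns each peak to 1 gene, and 4 peaks inside the clusters went to non-coding RNAs. The peak given to HOXC13-AS lay from 53938989 to 53939753 with a score of 31, and its annotation is exon 1 of HOXC13, a hair follicle gene. A peak given to HOXB-AS1 (score 26) overlapped the RefSeq gene body of HOXB2. A peak given to HOXD-AS2 had a score of 26. HOXC13 and HOXB2 are therefore without a peak by assignment and not by position. Of 24 non-coding RNA genes of the clusters, 3 had a promoter peak by assignment, HOXC13-AS and HOXB-AS1 among them (12.5%, between 4.17% with only peaks at or above the median score of the table (a score minimum) and 20.8% with a 5000 bp window). HOTAIR, the RNA of the HOXC cluster known to bind chromatin modifiers, was the nearest gene of none, as were all 6 microRNA genes of the clusters. Shares over all non-coding RNA or microRNA genes were not computed, so these counts cannot be read as low or high.

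By the number of members with a promoter peak, the HOX genes did not stand above the background. A promoter peak is one centred within 1000 bp of a TSS by the deposited distance. Of the 39 RefSeq HOX genes, 17 had one (43.6%, exact Clopper-Pearson 95% interval 27.8 to 60.4%), where 54.4% of 20037 RefSeq protein-coding genes did. With only peaks at or above the median score of the table the HOX share was 23.1%. The share of all genes at that minimum was not computed, so this value has no background beside it. Among genes named in the table the shares were 17 of 21 (81%) and 78.6%. The interval covers counting error only. Taking any peak within 1000 bp of either gene end, whatever its assignment, 20 of 39 HOX genes (51.3%) had one, against 60.8% of all. Among genes with a RefSeq promoter entry, a peak overlapped the 1000 bp around a start for 12 of 20 HOX genes (60%) and 65.1% of all. By cluster, promoter peaks were found at 6 of 11 HOXA, 3 of 10 HOXB, 2 of 9 HOXC and 6 of 9 HOXD genes. With only 9 to 11 genes in each, the intervals overlap: 23.4 to 83.3% for HOXA, 6.67 to 65.2% for HOXB, 2.81 to 60% for HOXC and 29.9 to 92.5% for HOXD. Any peak at all was assigned to 53.8% of HOX genes and 68.9% of RefSeq protein-coding genes. Named HOX genes had a median of 1 peak, against 2 over all named protein-coding genes.

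Along the DNA, HOXA and HOXD were richer in peaks than their surroundings. So was HOXC, by less and with 4 peaks, and HOXB, taken over its whole span, was not. HOXA held 13 peaks of any assignment in 107.1 kb (12.1 per 100 kb), and the 1 Mb on either side held 15 (0.75 per 100 kb). HOXD held 8 in 103.4 kb (7.74 per 100 kb) against 0.5 per 100 kb in its flanks. HOXC held 4 (3.41 against 1.55 per 100 kb), and HOXB 4 (2 against 2.1 per 100 kb). The HOXB span of 200.2 kb includes 101.8 kb before HOXB13 with no peak and no whole HOX gene. Chromosomes 7, 17, 12 and 2 had 2.88, 2.62, 2.23 and 2.42 peaks per 100 kb as a whole. The clusters are also dense in genes, while the flanks of HOXD hold 4 protein-coding genes and those of HOXA 9. Per gene all 4 clusters lay below their flanks, counting HOX genes in the clusters and all protein-coding genes in the flanks. The protein-coding genes HOXA10-HOXA9, PRAC1 and PRAC2 inside the spans were not counted. HOXA had 1.18 peaks per HOX gene and its flanks 1.67, HOXB 0.4 and 1.24, HOXC 0.444 and 0.689, and HOXD 0.889 and 2.5. No test of these differences was possible with 1 merged table. With only peaks at or above the median score of the table, the clusters had 7.47 (HOXA), 0.999 (HOXB), 0 (HOXC) and 2.9 (HOXD) peaks per 100 kb. Flank and chromosome densities at that minimum were not computed, so these values have no background beside them.

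**Figure D2:**
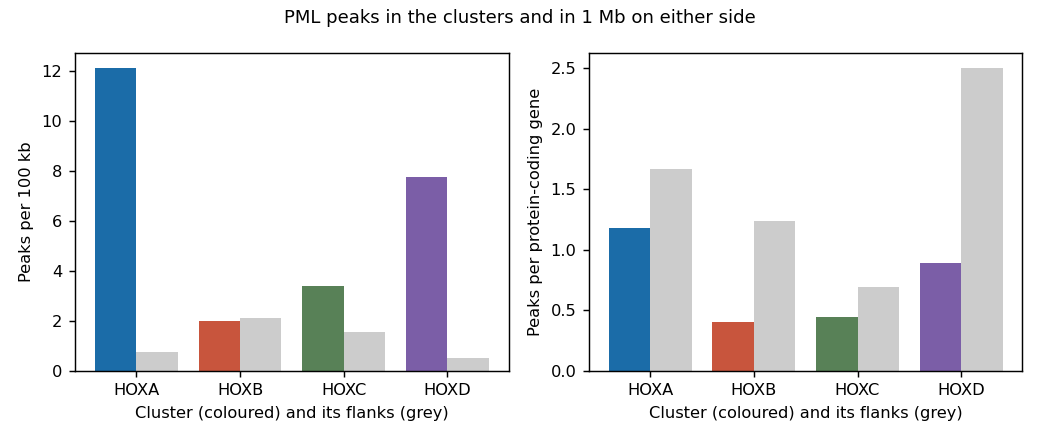
PML peaks in each HOX cluster (coloured bars) and in the 1 Mb on either side (grey bars), per 100 kb on the left and per gene on the right. The genes counted are HOX genes in the clusters and all protein-coding genes in the flanks. Per 100 kb HOXA (12.1), HOXD (7.74) and HOXC (3.41) exceed their flanks (0.75, 0.5 and 1.55), and per gene all 4 clusters lie below theirs.

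Peak-free stretches differed between the clusters as well. The longest without any peak was 101.8 kb, from 48626327 to 48728163 between HOXB9 and HOXB13, and it holds no HOX gene whole. In the same cluster 49.4 kb around HOXB3 and HOXB4 had no peak. In HOXC the 46.5 kb that hold HOXC4, HOXC5 and HOXC6 had none, nor did 35.1 kb with HOXC9 and HOXC10. In HOXD the 3′ edge with HOXD1 was free over 30.7 kb. The longest peak-free stretch of HOXA was 16.2 kb, from 27113781 to 27129961, inside the long transcripts of HOXA3. Among the protein-coding genes next to the clusters, EVX2, a homeobox gene beside HOXD13, had 2 peaks, the higher with a score of 98, above every HOXD peak. EVX1 beside HOXA13 had 1 (score 31) and MTX2 beside HOXD1 had 1 at its promoter (score 75). SKAP2, SKAP1, TTLL6, CALCOCO1 and SMUG1 were the nearest gene of none.

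By the main division used here, the 3′ and 5′ ends did not show a common difference in peak number. Paralog groups 1 to 8 were taken as the 3′ end and groups 9 to 13, the posterior genes, as the 5′ end. Each end had 13 peaks, at 11 of 23 genes (47.8%) and 10 of 16 genes (62.5%). Promoter peaks were found at 8 of the 3′ genes (34.8%, interval 16.4 to 57.3%) and 9 of the 5′ genes (56.2%, interval 29.9 to 80.2%). These intervals overlap. In HOXA 7 peaks lay at the 3′ end and 5 at the 5′ end, in HOXD 4 and 3. In HOXB there were 1 and 3, in HOXC 1 and 2. The direction in HOXA and HOXD turns when the ends are divided at the middle of the cluster (5 against 7, and 3 against 4). By that division no cluster had more peaks at its 3′ end (11 against 15 in all). The same held with the 3′ end limited to groups 1 to 4 and groups 5 to 8 left out (7 against 13). That setting counts fewer 3′ genes by construction. With the main division but only peaks at or above the median score of the table, it was 7 against 5.

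Scores and widths by end also went different ways in different clusters. In HOXA the median score was 42 at the 3′ end and 26 at the 5′ end, though the highest HOXA score of all (106, at HOXA10) lies at the 5′ end. In HOXD the order was opposite, with 26 at the 3′ end and 42 at the 5′ end. The 3 HOXD peaks at the 5′ end scored 31, 42 and 48, and the 4 at the 3′ end 17, 21, 31 and 36. These ranges overlap. With only peaks at or above the median score of the table, the HOXA order turned, to 46 at the 3′ end and 71 at the 5′ end. The HOXD peaks were also wider at the 5′ end, with a median of 1068 bp against 400 bp, a gap that shrank to 66.5 bp with the score minimum. HOXA peaks were narrower there (285 against 440 bp), a direction that turns when the cluster is divided at its middle. HOXB (26 and 42) and HOXC (28.5 and 21, 5′ end first) have a single peak at the 3′ end, and the HOXB order turned with the score minimum (68 and 42). Over all 4 clusters the medians were close, 36 and 31 in score and 432 and 454 bp in width for the 3′ and 5′ ends. With the score minimum both turned, to 42 and 48 in score and 630 and 531 bp in width.

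**Figure D3:**
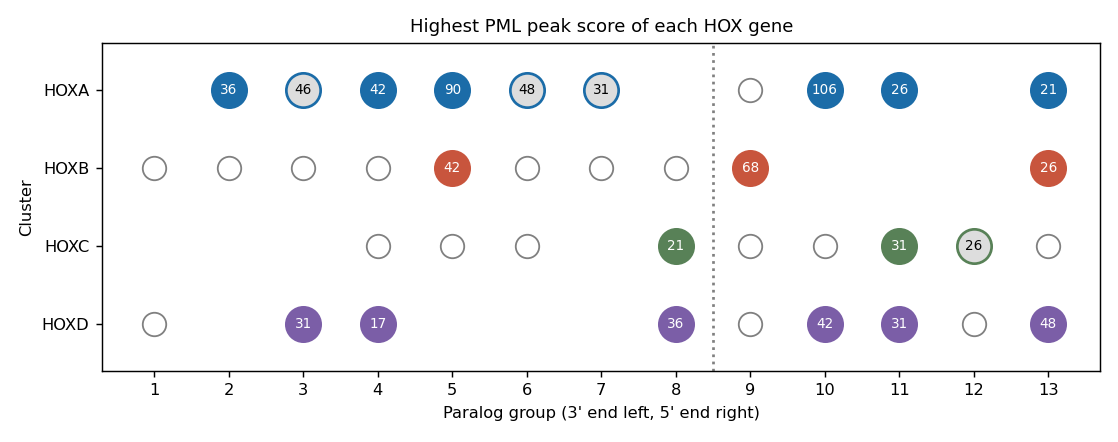
Highest peak score of HOX genes (1 HOXA gene is not drawn) by paralog group (horizontal) and cluster (vertical). By the deposited distance, filled circles have a peak within 1000 bp of a TSS and grey circles only a more distant one. Open circles have none, and all 3 genes of group 11 are filled.

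Across paralog groups, group 11 was the only one with a promoter peak at every gene: HOXA11 (26), HOXC11 (31) and HOXD11 (31). Group 13 had promoter peaks at 3 of 4 genes, HOXA13, HOXB13 and HOXD13, and the exon 1 peak of HOXC13 was given to its antisense RNA. Groups 10 and 5 each had them at 2 of 3 genes, and so did group 8. Group 9 had a single one, at HOXB9, among 4 genes. Groups 6, 7 and 12 had no promoter peak, and each had 1 more distant peak, at HOXA6, HOXA7 and HOXC12. With 2 to 4 genes in a group, no difference between groups can be read from these counts.

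HOX promoter peaks were lower in score and narrower than most promoter peaks of protein-coding genes. The 18 HOX promoter peaks had a median score of 36, from 17 to 106, and the 12106 promoter peaks of all protein-coding genes had a median of 61. Only 3 of the 18 (16.7%, interval 3.58 to 41.4%) reached 61, those of HOXA10, HOXA5 and HOXB9, where 50.6% of all promoter peaks did. The HOX median lies at the lower quartile of all promoter peaks, which is also 36. In width the HOX promoter peaks had a median of 459.5 bp, against 764.5 bp. At least that wide were 5 of 18 (27.8%, interval 9.69 to 53.5%), against 50% of all: HOXA4, HOXD11, HOXD13, HOXA10 and HOXA5. By cluster the median promoter score was 36 in HOXA, 42 in HOXB, 26 in HOXC and 33.5 in HOXD, and the ranges overlap. The 8 HOX peaks beyond 1000 bp by the deposited distance had a median score of 23.5 and a median width of 387.5 bp. Protein-coding rows at such distances had 31 and 405 bp. Among the 26 HOX peaks score and width went together with a Spearman rho of 0.504, close to the 0.535 over all protein-coding rows. Low scores take few distinct values, so that 22 of the 26 HOX peaks share their score with another.

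**Figure D4:**
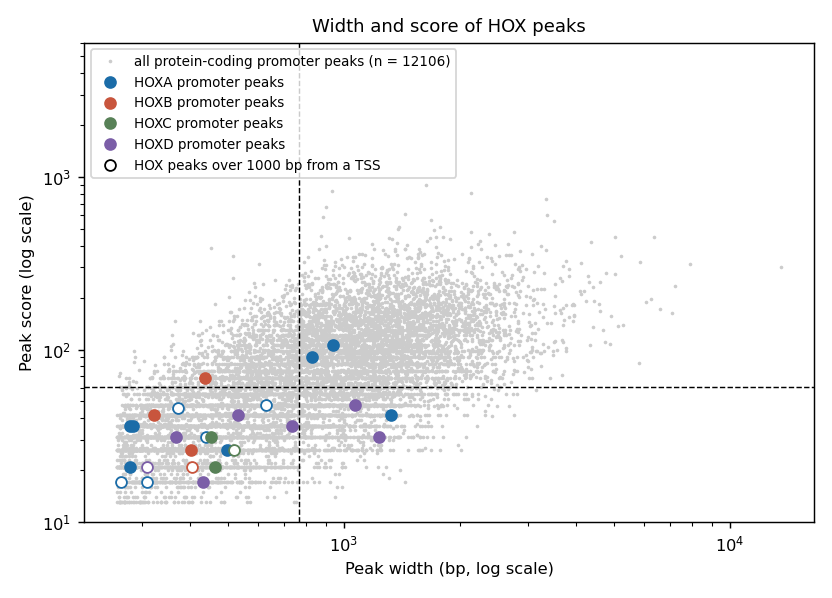
Width in bp and score, both on log scales, of the 12106 promoter peaks of protein-coding genes (grey) and of the 26 HOX peaks (coloured by cluster, open when over 1000 bp from a TSS). Dashed lines mark the medians of the grey points, 764.5 bp and 61, and only the peaks of HOXA10 and HOXA5 exceed both.

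HOX promoter peaks lay downstream of the start, over first exons. Of the 18, 16 were centred downstream of the TSS (88.9%, interval 65.3 to 98.6%), against 69.8% of all protein-coding promoter peaks. Their median position was 347.5 bp after the TSS, against 111 bp. Of all 26 HOX peaks 12 were in the exon class (46.2%), against 9.17% of protein-coding rows. Of the 16 HOX peaks over 100 and up to 1000 bp downstream, the same 12 were in that class (75%, interval 47.6 to 92.7%), where 22.9% of 6278 such protein-coding peaks were. All 12 lie in exon 1 of 2, in HOXA2, HOXA4, HOXA5, HOXA10, HOXB5, HOXB9, HOXB13, HOXC11, HOXD4, HOXD8, HOXD11 and HOXD13. The other 4 were HOXC8 in the 5′ UTR, HOXD3 in an intron, and HOXA11 and HOXA13, which were annotated to promoters of antisense RNAs. The part that the length of HOX first exons has in this was not tested. Repeats were named for 1 of the 26 HOX peaks (3.85%, interval 0.0973 to 19.6%), a G-rich stretch in HOXD3, against 22.2% of protein-coding rows. More of the HOX peaks are promoter peaks, 69.2% against 24.4%, and among promoter peaks alone the shares were 1 of 18 (5.56%, interval 0.141 to 27.3%) and 0.719%. CpG islands were named for 5 of the 26 (19.2%, interval 6.55 to 39.4%), against 7.52%. Among promoter peaks they were named for 0 of 18, with an upper bound of 18.5%, against 14.9%. No difference in repeats or CpG islands can be read from these counts.

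**Figure D5:**
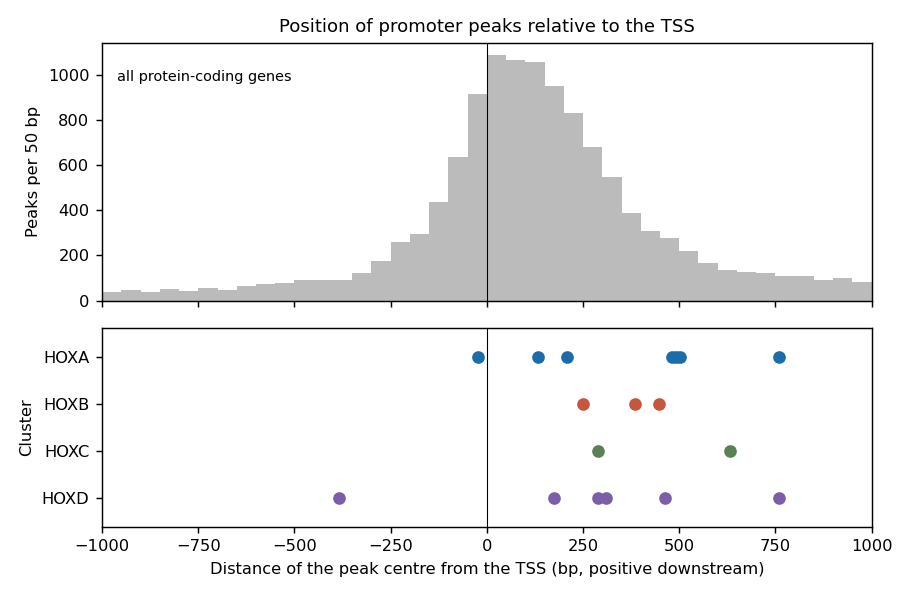
Position of promoter peak centres in bp from the TSS: above, the number per 50 bp for all protein-coding genes, and below, each HOX peak by cluster. Apart from a peak of HOXA10 (-22) and that of HOXD10 (-384), all HOX promoter peaks lie downstream of the TSS. These all lie beyond the median of all genes, 111 bp.

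Genes that act with HOX proteins or on HOX chromatin mostly had promoter peaks, and their scores were nearer to the median of all promoter peaks, 61, or above it. The TALE cofactors, homeodomain proteins that bind DNA with HOX proteins, had a promoter peak at 8 of 9 genes (88.9%), led by MEIS2 (112), PBX3 (84), PBX2 (61) and PKNOX1 (61). Polycomb genes had one at 27 of 30 (90%), with the PRC2 accessory gene AEBP2 at 204, PHC2 at 184 and PCGF1 at 180. EZH2, the PRC2 methyltransferase, had 156. EED, RBBP4 and CBX7 had none. Trithorax and MLL complex genes had one at 14 of 18 (77.8%), and KMT2A, whose product MLL maintains HOX expression, had the highest score of these lists, 345, from 118435939 to 118436958 on chromosome 11. KMT2C had 181 and ASH1L 140, while KMT2D, DPY30, KDM6B and HCFC2 had none. The median of the highest promoter score was 54.5 for the cofactors, 68 for Polycomb and 104.5 for the MLL list, beside the 36 of HOX promoter peaks. The list medians take only the highest promoter peak of each gene. The 61 and the 36 are over all promoter peaks, so the measures are not the same. Of the ParaHox and EVX genes, the closest relatives of the HOX clusters, 3 of 8 had a promoter peak: PDX1 (103), CDX2 (75) and GSX1 (32). CDX1, CDX4, GSX2, EVX1 and EVX2 had none. This share, 37.5%, moved with the settings, to 75% with a window of 5000 bp and to 25% with one of 500 bp or with the score minimum. Only the shares at 1000 bp without a score minimum stand beside the 54.4% of all RefSeq protein-coding genes. Shares of all genes at the other settings were not computed, and no list was tested.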

How the data were processed

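PML ChIP and input libraries of MDA-MB-231 cells were sequenced, and the only file is 1 annotated peak table of the merged duplicates. Per the submitters' processing notes, reads were handled with BWA 0.7.12, Trimmomatic 0.36 and Picard 2.0.1 on hg38, and the notes also name HOMER 4.11.1 and MACS2 2.1.1.20160309. Their settings are not given in the sources used here. Each score is a whole number deposited by the authors, with no stated scale, and positions and distances to the TSS are in bp as deposited. Depth is unknown.

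Width is end minus start plus 1. HOX genes, cluster spans and gene ends come from RefSeq GRCh38.p14, and strand from its promoter table. Counts and medians were set beside those of all protein-coding rows, without tests, since peaks of 1 list are not replicates. Intervals are exact Clopper-Pearson 95%. The functions were tested on simulated data. Members and lists were chosen with earlier results of these data known. The named genes are, per cluster, the highest-scoring and highest promoter peaks, the most peak-rich gene and genes without a peak, the 10 highest HOX peaks, the 3 highest promoter peaks per list with members lacking one where at most 5 do, and the cluster neighbours; some genes that the rule names are left out of the text. Alternatives covered the promoter window, the score minimum, the assignment, the division into ends and the span. Python 3.11.15, numpy 2.4.6, pandas 2.3.3, scipy 1.17.1 and matplotlib 3.10.9 were used.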

Additional observations from a re-analysis of the deposited data

How the results depend on the processing

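No paired analysis was possible because the duplicates were merged into 1 peak table, and for the same reason no replicate could be left out. Of 104 alternative values, 67 stayed within the counting interval of the value in the text or within 1.5 times of it. The cause of the other changes was not tested, except that a score minimum leaves fewer peaks by construction. With only peaks at or above the median score of the whole table, 12 HOX peaks were left: 7 in HOXA, 2 in HOXB, 0 in HOXC and 3 in HOXD. Densities were then 7.47, 0.999, 0 and 2.9 peaks per 100 kb, and 23.1% of HOX genes had a promoter peak. Without the score minimum, 81% of the HOX genes named in the table had a promoter peak. Alternatives chosen after seeing the data, any peak within 1000 bp of either gene end and the annotation column, gave 51.3% and 48.7%.

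For the 5′ minus 3′ differences, with the 3′ end limited to groups 1 to 4, the difference in peaks was 6 over all clusters, 1 in HOXA, 2 in HOXC and 0 in HOXD, the median score differed by 0 over all, and the median width by 86 bp over all and -55 bp in HOXA. Divided at the middle of the span, peaks differed by 4 over all, 2 in HOXA, 0 in HOXB and 1 in HOXD, the HOXB score by -31.5, and width by 127 bp over all, 69 bp in HOXA and 23.5 bp in HOXB. With the score minimum, peaks differed by -2 over all, 0 in HOXB, 0 in HOXC and 1 in HOXD, scores by 6 over all, 25 in HOXA, 26 in HOXB and 9 in HOXD, and widths by -99 bp over all, -17.5 bp in HOXA and 66.5 bp in HOXD. HOXB and HOXC gave no score or width difference with groups 1 to 4, nor HOXC with the score minimum.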
